A study of Mus musculus with 8 samples.

Results

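The transcripts of 10 genes that encode structural proteins of the nucleus were followed through osteogenic induction of a mesenchymal cell line: the lamins Lmna, Lmnb1 and Lmnb2, the high mobility group (HMG) genes Hmgb1, Hmgb2, Hmga1 and Hmga2, and the heterochromatin protein 1 (HP1) genes Cbx1, Cbx3 and Cbx5. They were taken by symbol from the 18605 genes in the expression table, and all 10 passed the filter on low counts that left 13470 genes for testing. The cells were C3H10T1/2, a mouse embryo mesenchymal line of strain C3H. They carried either a non-target control (NC) or a lentiviral shRNA against Nap1l2 (KD-Nap1l2), a histone chaperone of the nucleosome assembly protein family. Both lines were sequenced uninduced, at day 0, and at day 7 of induction towards bone (groups NC-7d and KD-Nap1l2-7d). Each of the 4 groups had 2 RNA-seq libraries, all of 1 cell line, and the labels do not say that they came from separate cultures, so that p-values measure only the spread between these libraries, which may be technical.

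The lamins form the filament meshwork under the inner nuclear membrane. Loss of lamin B1 is a widely used marker of senescent cells, whereas A-type lamins persist in them. HMGB1 and HMGB2 bend DNA through HMG boxes, and both decline or leave the nucleus as cells senesce. The AT-hook proteins HMGA1 and HMGA2 are abundant in embryonic and mesenchymal progenitors and are components of senescence-associated heterochromatin foci. The 3 HP1 proteins (Cbx5 encodes HP1 alpha, Cbx1 HP1 beta and Cbx3 HP1 gamma) bind histone H3 methylated at lysine 9 and accumulate in the same foci.

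The libraries held between 17420284 and 19427359 estimated counts, and the first principal component, with 54.1% of the variance of log2 CPM (counts scaled to a common library size), separated day 0 from day 7. Nap1l2 had 3 and 3 counts in NC, 2 and 7 in KD-Nap1l2, 15 and 5 in NC-7d, and 7 and 13 in KD-Nap1l2-7d, so these counts do not show the knockdown and the groups are given as the libraries labelled KD-Nap1l2. Of 12 mesenchymal markers all were above 1 CPM in every library but 1, NC-7d replicate 2, where Thy1 stood at 0.998 CPM. Of the 11 listed markers of immune, epithelial and endothelial cells, the T cell gene Cd3e was at 0 in 7 libraries and the epithelial gene Epcam in 6, while Cd68, Cdh1, Csf1r and Pecam1 were at 0 in none. The 11 together summed to between 7.30 and 15.7 CPM, most of it from the macrophage gene Cd68 (at most 11.2 CPM) and the epithelial cadherin Cdh1 (at most 8.04 CPM). In such bulk RNA, fewer cells of a type and less RNA per cell cannot be told apart.

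**Figure D1:**
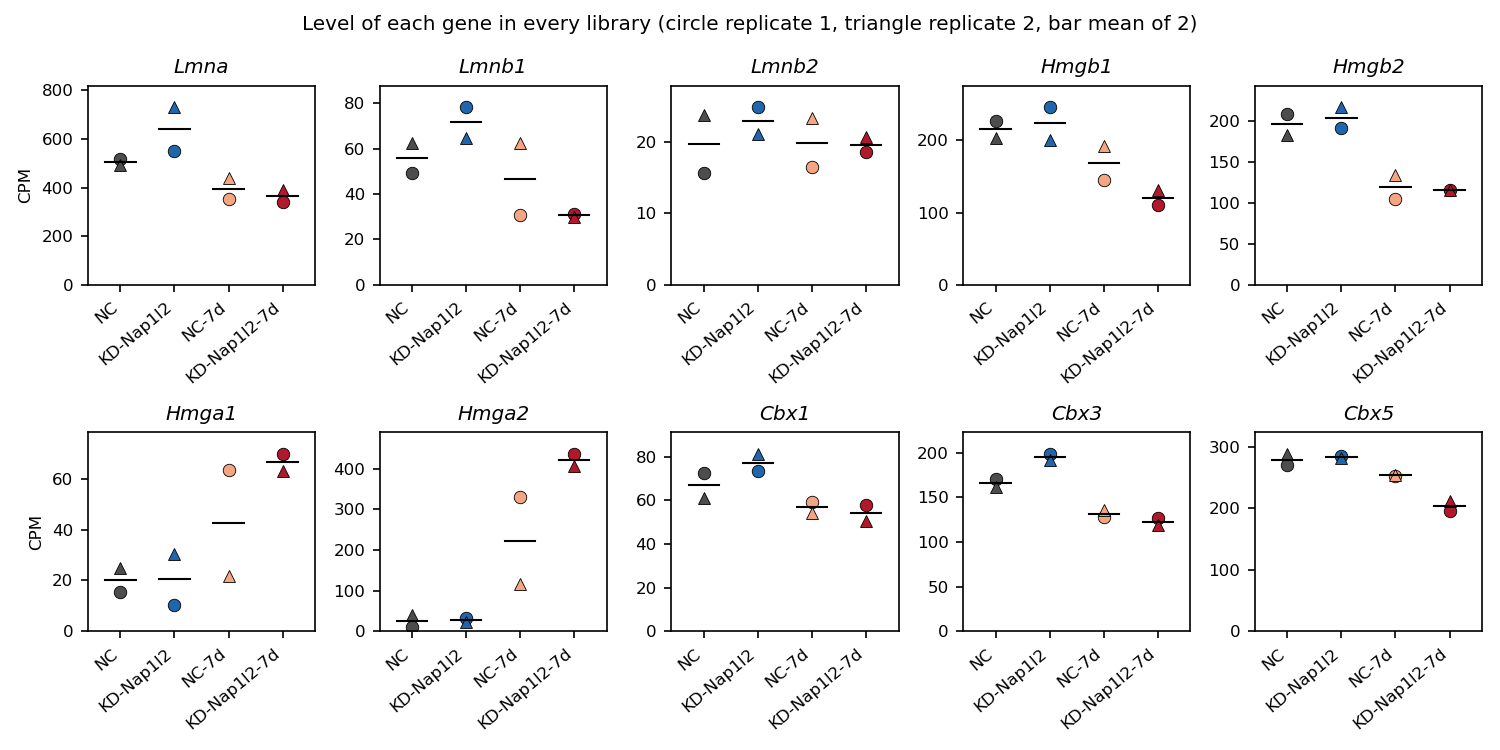
Each panel plots the level of 1 gene in CPM (vertical axis, from 0) in the 4 groups (horizontal axis), with circles for replicate 1, triangles for replicate 2 and a bar at the mean of the 2. Hmga2 lies at or below 40.8 CPM in the 4 day 0 libraries and at or above 115 CPM in the 4 day 7 libraries, while Hmgb2 and Cbx3 are lower in every day 7 library than in any at day 0.

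Per length, in FPKM (which divides the scaled fragments by transcript length, and which is the unit read from the values, since the table does not name it), the order of the 10 genes in NC was led by Lmna (171 ± 2.68 FPKM, SD, n = 2), Hmgb2 (157 ± 12.7) and Cbx3 (101 ± 2.22). Hmgb1 (74.5 ± 4.80), Cbx5 (44.7 ± 5.04), Cbx1 (35.5 ± 3.52) and Lmnb1 (19.5 ± 3.48) followed, each pair of neighbours without overlap between their libraries. Hmga1 (11.1 ± 3.63), Hmga2 (6.48 ± 5.44) and Lmnb2 (5.80 ± 1.74) closed the order, and these 3 overlapped as neighbours. KD-Nap1l2 had the same order. In KD-Nap1l2-7d, Hmga2 stood in second place at 106 ± 6.34 FPKM, between Lmna at 124 ± 10.6 and Hmgb2 at 93.2 ± 0.346, with no overlap on either side. In NC-7d it came after Hmgb1 at 55.8 ± 36.6 FPKM, and its libraries overlapped those of both neighbours, Hmgb1 and Cbx5.

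Among the lamins, Lmnb1 and Lmna fell after induction in the libraries labelled KD-Nap1l2, while no lamin was called in the controls and Lmnb2 was called in neither. Lmnb1, which encodes the lamin B1 of senescence assays, measured 49.2 and 62.4 CPM in NC, 78.1 and 64.8 in KD-Nap1l2, 30.6 and 62.4 in NC-7d, and 31.1 and 30.0 in KD-Nap1l2-7d. Its 2 NC-7d libraries were far apart, with replicate 1 at the level of KD-Nap1l2-7d and replicate 2 at that of NC. From KD-Nap1l2 to KD-Nap1l2-7d the log2 fold change of Lmnb1 was -1.23 ± 0.30 (SE, 2.34-fold lower, edgeR adjusted p = 0.0347), and from NC to NC-7d it was -0.26 ± 0.30 (adjusted p = 0.636). Lmna, the gene of lamins A and C, measured 516 and 494 CPM in NC, 551 and 731 in KD-Nap1l2, 352 and 440 in NC-7d, and 339 and 389 in KD-Nap1l2-7d. All 4 day 7 libraries lay below all 4 at day 0. Lmna changed by -0.82 ± 0.18 on the log2 scale in the libraries labelled KD-Nap1l2 (edgeR adjusted p = 0.0268) and by -0.35 ± 0.18 in the controls (adjusted p = 0.286). Lmnb2, the gene of lamin B2, ranged from 15.7 to 24.8 CPM over the 8 libraries. Its log2 fold changes on induction were 0.01 ± 0.24 in NC and -0.23 ± 0.24 in KD-Nap1l2 (edgeR adjusted p = 0.984 and 0.558).

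The balance of the 2 B-type lamins can be read within each library. The FPKM of Lmnb1 over that of Lmnb2 was 3.73 and 3.13 in NC, 3.74 and 3.65 in KD-Nap1l2, 2.21 and 3.19 in NC-7d, and 2.00 and 1.72 in KD-Nap1l2-7d. The KD-Nap1l2-7d libraries had the lowest ratios and NC-7d replicate 2 lay within the range of NC. The FPKM of Lmna over that of Lmnb1 was between 7.05 and 12.7 with no such order of the groups.

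Lmna gives rise to lamin A and lamin C by alternative splicing and polyadenylation, and the transcript table separates them. The transcript coding for 665 residues (prelamin A) took 84.2% and 82.6% of the Lmna estimated counts in NC, 78.6% and 85.3% in KD-Nap1l2, 85.3% and 79.3% in NC-7d, and 84.2% and 82.8% in KD-Nap1l2-7d. The 574-residue transcript (lamin C) took 14.9% and 15.3%, 20.7% and 12.7%, 11.6% and 17.6%, and 12.4% and 15.9% in the same order. The shares of these 2 transcripts overlapped between the groups of every comparison. A 462-residue transcript took 0.043% and 0.558% in NC, 0.371% and 0.704% in KD-Nap1l2, 3.14% and 2.12% in NC-7d, and 2.40% and 0.364% in KD-Nap1l2-7d. Its share was higher in NC-7d than in NC without overlap and overlapped between KD-Nap1l2 and KD-Nap1l2-7d, as a description with no test. Lmnb1 was listed with 1 transcript.

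**Figure D2:**
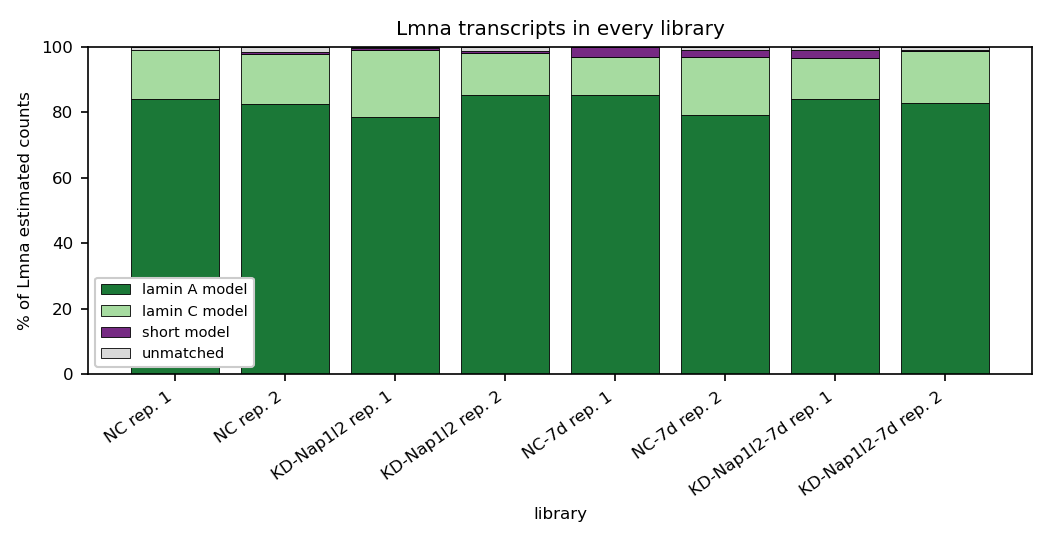
Stacked bars give the percent of the Lmna estimated counts (vertical axis, 0 to 100) assigned to each transcript in the 8 libraries (horizontal axis), with the lamin A model in dark green, the lamin C model in light green, the 462-residue model in purple and an unmatched transcript in grey. The lamin A model takes between 78.6% and 85.3% in every library.

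Of the HMG box genes, Hmgb2 fell on induction in both the control and the knockdown-labelled libraries, and Hmgb1 in the latter. Hmgb2, whose product is enriched in dividing cells, measured 208 and 183 CPM in NC, 191 and 216 in KD-Nap1l2, 104 and 134 in NC-7d, and 115 and 116 in KD-Nap1l2-7d, so that the day 7 libraries all lay below those of day 0. Its log2 fold change was -0.71 ± 0.16 in NC (1.64-fold lower, edgeR adjusted p = 0.0324) and -0.82 ± 0.16 in KD-Nap1l2 (1.76-fold lower, adjusted p = 0.0157). Hmgb1, the more widely expressed paralogue, measured 227 and 204 CPM in NC, 246 and 201 in KD-Nap1l2, 146 and 192 in NC-7d, and 110 and 131 in KD-Nap1l2-7d. The KD-Nap1l2-7d libraries were the lowest of the 8, and both NC-7d libraries lay below NC. Hmgb1 fell by 0.89 ± 0.18 on the log2 scale from KD-Nap1l2 to KD-Nap1l2-7d (edgeR adjusted p = 0.0196), and its change in the controls was -0.35 ± 0.18 (adjusted p = 0.284). The gene-level count of Hmgb1 was not a whole number in any library, and that of Hmgb2 in 4 of 8, which shows that some of their reads were divided between genes.

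Hmgb1 was listed with a transcript of long 3' UTR (2035 bases) and one of short 3' UTR (92 bases), both coding for 215 residues. The short one took 9.47% and 7.29% of the Hmgb1 counts in NC, 5.19% and 4.90% in KD-Nap1l2, 10.8% and 9.16% in NC-7d, and 13.0% and 13.3% in KD-Nap1l2-7d. The share was lowest in the libraries labelled KD-Nap1l2 at day 0 and highest in those at day 7, as a description with no test.

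The promoter windows of both HMG box genes are shown because they hold several copies of the CCAAT box, which NF-Y binds in many cell cycle genes. They are RefSeq sequences on GRCm38.p6, from 250 bases before to 50 after the start of the gene, and capitals mark motif matches on either strand. The motifs were CCAAT and the cell cycle element CHR, spelled TTTGAA in its usual form and searched also as TTTAAA in a second form. The E2F motif was searched as TTCCCGC and, in 2 further spellings, as TTGGCGC and then as TTCGCGC. The Hmgb2 window, chr8:57511593-57511892 on the plus strand, holds 4 CCAAT boxes starting at -243, -198, -73 and -11 and 2 CHR matches at -218 and -30. The first Hmgb1 window, chr5:149053008-149053307 on the minus strand, holds 3 CCAAT boxes, and the second, chr5:149051567-149051866, holds no match to any of the motifs and is not printed.
Hmgb2 promoter: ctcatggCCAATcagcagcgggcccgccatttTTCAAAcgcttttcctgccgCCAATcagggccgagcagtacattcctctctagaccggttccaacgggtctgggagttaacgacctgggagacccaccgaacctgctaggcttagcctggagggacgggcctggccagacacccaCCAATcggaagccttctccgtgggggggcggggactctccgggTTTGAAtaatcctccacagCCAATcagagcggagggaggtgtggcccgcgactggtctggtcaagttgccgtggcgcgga
Hmgb1 promoter: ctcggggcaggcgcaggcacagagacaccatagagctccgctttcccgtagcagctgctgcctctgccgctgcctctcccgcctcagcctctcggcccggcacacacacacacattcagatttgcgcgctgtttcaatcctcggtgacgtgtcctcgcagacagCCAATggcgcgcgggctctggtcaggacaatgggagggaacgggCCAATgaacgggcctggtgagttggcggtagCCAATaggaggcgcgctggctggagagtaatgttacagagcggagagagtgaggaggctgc
The matches do not overlap one another. Of all 32851 promoters in the table, 37.4% hold at least 1 CCAAT, 3.37% at least 3 and 1.06% at least 4. Promoters were found for 9 of the 10 genes, Lmnb1 being the exception, with 15 windows in all. At least 1 window held a CCAAT box in 4 of the 9 (Lmna, Hmgb1, Hmgb2 and Cbx5), against 43.8% of the 10651 tested genes with a promoter. It held a CHR match in 3 (Hmgb2, Hmga1 and Cbx5) against 23.1%, an E2F match in 4 (Lmnb2, Hmga2, Cbx1 and Cbx3) against 16.2%, and TATAAA in 0 against 9.46%. Counted by window, CCAAT, CHR and E2F matches were each in 4 of the 15, against 37.4%, 27.6% and 8.07% of all promoters. These are matches of letters, not sites shown to be bound.

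Of the AT-hook genes, Hmga2 rose in both settings and Hmga1 did not pass the test. Hmga2, an architectural chromatin protein of embryonic and mesenchymal cells, measured 10.4 and 40.8 CPM in NC, 32.8 and 23.6 in KD-Nap1l2, 330 and 115 in NC-7d, and 437 and 406 in KD-Nap1l2-7d. Every day 7 library was above the day 0 range, and NC-7d replicate 2 was the lowest of the day 7 libraries. The log2 fold change was 3.12 ± 0.67 in NC (8.67-fold higher, edgeR adjusted p = 0.0304) and 3.90 ± 0.69 in KD-Nap1l2 (14.9-fold higher, adjusted p = 0.0118), the largest change in size among the 10 genes in either comparison. In NC it was 2.44 without NC replicate 1 (edgeR adjusted p = 0.142), 4.42 without NC replicate 2 (0.0277) and 2.17 without NC-7d replicate 1 (0.0981). Leaving out the other NC-7d library gave 3.68 (0.0170). Hmga2 also varied most between replicates, with a biological coefficient of variation of 0.428 against a common value of 0.178, followed by Hmga1 at 0.391 and Lmnb1 at 0.216.

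Hmga1 measured 15.5 and 24.9 CPM in NC, 10.5 and 30.3 in KD-Nap1l2, 63.6 and 21.9 in NC-7d, and 69.8 and 63.1 in KD-Nap1l2-7d. NC-7d replicate 2 lay within the day 0 range, and the other 3 day 7 libraries lay above it. The log2 fold changes were 1.07 ± 0.57 in NC and 1.71 ± 0.58 in KD-Nap1l2 (edgeR adjusted p = 0.295 and 0.0878), neither past the threshold. The table also lists Hmga1b, an intronless copy at chromosome 11, 120762794 to 120764392 (GRCm38.p6). Of the 50-base windows of the Hmga1b transcripts, 89.0% occur unchanged in transcripts of Hmga1, so the division of reads between the 2 genes is uncertain. Hmga1b took between 85.5% and 88.5% of the counts of the pair in every library. Its FPKM was 58.0 and 113 in NC, 50.4 and 138 in KD-Nap1l2, 244 and 111 in NC-7d, and 310 and 274 in KD-Nap1l2-7d. With the counts of both genes summed, an alternative chosen after the data were seen, the pair had 108 and 201 CPM in NC, 86.0 and 256 in KD-Nap1l2, 455 and 191 in NC-7d, and 553 and 497 in KD-Nap1l2-7d. The same library stood out, and the log2 fold changes were 1.07 ± 0.56 in NC and 1.62 ± 0.57 in KD-Nap1l2 (edgeR adjusted p = 0.290 and 0.0967). The place of Hmga1 in the order of FPKM depends on this division.

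**Figure D3:**
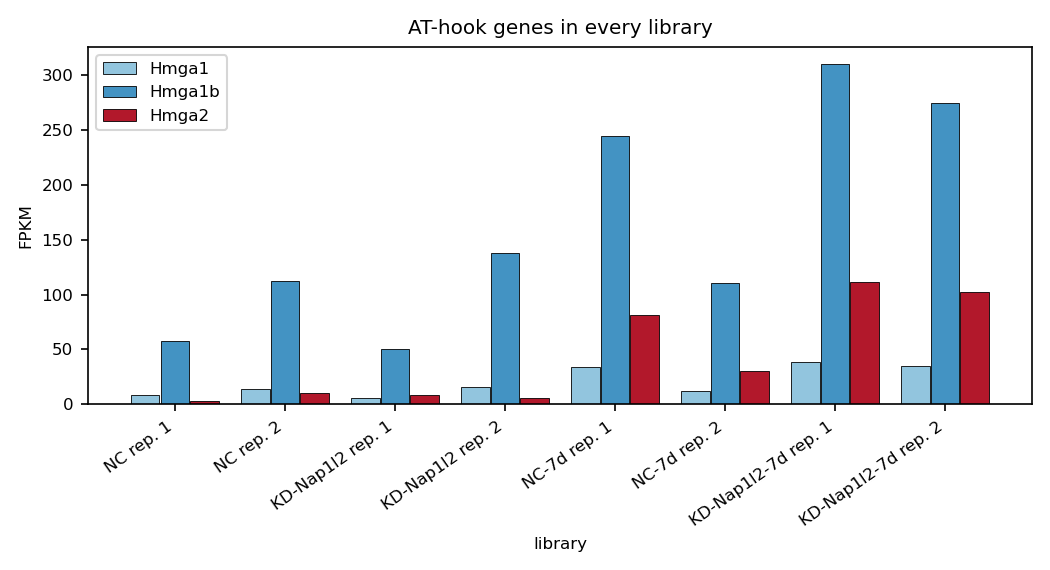
Bars give the FPKM (vertical axis, from 0) of Hmga1 (light blue), its copy Hmga1b (dark blue) and Hmga2 (red) in each of the 8 libraries (horizontal axis). Hmga1b exceeds Hmga1 in every library, and the bars of all 3 genes are lower in NC-7d replicate 2 than in the other day 7 libraries.

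The level of Hmga2 relative to Hmga1 and Hmga1b changed with the day. Hmga2 FPKM over the summed FPKM of Hmga1 and Hmga1b was 0.0395 and 0.0817 in NC, 0.154 and 0.0371 in KD-Nap1l2, 0.294 and 0.243 in NC-7d, and 0.318 and 0.330 in KD-Nap1l2-7d. The 4 day 7 libraries were above the 4 at day 0, NC-7d replicate 2 included.

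Hmga2 is the classical target of the let-7 microRNAs, and its seed matches are printed because no other gene of the 10 has as many. All 8 mature mouse let-7 5p sequences in the RefSeq table have the same seed, and let-7a (chr13:48538239-48538260, minus strand, GRCm38.p6) stands for them, with the seed in capitals. The 4 target windows follow in 5' to 3' order of the 3' UTR, with the match to the seed (CTACCTC) in capitals, at chr10:120364224-120364243, chr10:120362987-120363006, chr10:120362549-120362568 and chr10:120361691-120361710 on the minus strand of GRCm38.
let-7a-5p: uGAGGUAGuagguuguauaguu
Hmga2 site 1: gacattcaatttCTACCTCa
Hmga2 site 2: cactcctcaataCTACCTCt
Hmga2 site 3: atttgcaaggaaCTACCTCc
Hmga2 site 4: caaaacacactaCTACCTCt
Cbx5 has 2 such matches in its longest annotated 3' UTR, Hmga1 has 1 and the other 7 genes have 0. Of 13052 tested genes with an annotated 3' UTR, 11.7% have at least 1 match and 0.069% have 4 or more. The 4 Hmga2 sites lie in annotated 3' UTRs. Of the Hmga2 estimated counts, 77.4% to 92.7% in each library were on a transcript that matched no annotated model. Whether that transcript holds the sites is therefore not known here. The matched transcript, with 4 matches in its 3' UTR, took 7.34% to 22.6%. MicroRNAs were not measured, and the match is a description of the sequence. Of 8 genes listed for the Hmga2 and let-7 axis, Hmga2 among them, 6 were tested. The list was chosen with earlier results of these data known. All 6 had positive log2 fold changes on induction in both settings. Their medians were 0.79 in NC and 0.65 in KD-Nap1l2 against 0.00 and -0.01 over all genes. The part of let-7 in these changes was not tested. Igf2bp2, an mRNA-binding protein whose gene HMGA2 is known to activate, rose by 0.96 ± 0.19 in NC and 1.03 ± 0.19 in KD-Nap1l2 on the log2 scale (edgeR adjusted p = 0.0251 and 0.0144). It measured 86.2 and 107 CPM in NC, 103 and 104 in KD-Nap1l2, 224 and 153 in NC-7d, and 211 and 214 in KD-Nap1l2-7d. Arid3a, a DNA-binding protein, rose in NC (1.18 ± 0.24, edgeR adjusted p = 0.0255) and had 0.61 ± 0.24 in KD-Nap1l2 (adjusted p = 0.122). Lin28a and Lin28b, which block let-7 maturation, were too low to test, at no more than 4 counts in any library.

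The 3 HP1 genes fell after induction in the libraries labelled KD-Nap1l2, and none was called in the controls. Cbx3 measured 170 and 161 CPM in NC, 199 and 192 in KD-Nap1l2, 128 and 136 in NC-7d, and 127 and 119 in KD-Nap1l2-7d. The groups at day 0 and day 7 did not overlap, and replicates lay close together (coefficient of variation 0.113, the lowest of the 10 genes). Cbx3 fell by 0.67 ± 0.12 on the log2 scale in KD-Nap1l2 (edgeR adjusted p = 0.0110, the smallest among the 10) and had -0.33 ± 0.11 in NC (adjusted p = 0.126). Cbx5 measured 269 and 288 CPM in NC, 285 and 282 in KD-Nap1l2, 253 and 254 in NC-7d, and 196 and 212 in KD-Nap1l2-7d. KD-Nap1l2-7d was the lowest group, without overlap with any other. Its log2 fold changes were -0.48 ± 0.12 in KD-Nap1l2 (edgeR adjusted p = 0.0367) and -0.14 ± 0.12 in NC (adjusted p = 0.523). Cbx1 measured 72.5 and 61.1 CPM in NC, 73.3 and 81.3 in KD-Nap1l2, 59.0 and 54.4 in NC-7d, and 57.8 and 50.4 in KD-Nap1l2-7d. Its groups at day 0 and day 7 did not overlap, by a narrow margin in the controls. Its log2 fold changes were -0.51 ± 0.14 in KD-Nap1l2 (edgeR adjusted p = 0.0453) and -0.24 ± 0.14 in NC (adjusted p = 0.336). The HP1 genes kept their order in every library, with Cbx3 between 2.06 and 2.57 times the FPKM of Cbx5 and between 2.51 and 3.19 times that of Cbx1.

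Counted together, 2 of the 10 genes were called from NC to NC-7d (an adjusted p under 0.05), Hmga2 higher and Hmgb2 lower, against 8.21% of the 13470 genes tested (4.83% higher and 3.38% lower). From KD-Nap1l2 to KD-Nap1l2-7d 8 of the 10 were called, Hmga2 higher and 7 lower (Lmna, Lmnb1, Hmgb1, Hmgb2, Cbx1, Cbx3 and Cbx5), against 14.2% of all genes (6.84% higher and 7.36% lower). The median log2 fold change of the 10 was -0.25 and -0.59 in these comparisons, beside -0.00 and -0.01 over all genes. The libraries of the day 0 and day 7 groups did not overlap for 7 of the 10 in NC, where 57.8% of all genes did not, and for 10 of 10 in KD-Nap1l2, where 61.4% did not. With 2 libraries against 2, an exact permutation test of a single gene cannot go below p = 0.333, and the calls rest on the spread shared over all groups. Without KD-Nap1l2-7d replicate 1 or replicate 2, 0 of the 10 were called in either induction comparison, and without KD-Nap1l2 replicate 2 Hmgb1 and Cbx3 alone were called in KD-Nap1l2. In the controls, 0 were called without NC replicate 1 or NC-7d replicate 1, and Hmga2 alone without NC replicate 2. Without NC replicate 1 or NC replicate 2, 4 genes were called in KD-Nap1l2 (Hmgb1, Hmgb2, Hmga2 and Cbx3), and without KD-Nap1l2 replicate 1, 5 genes. Mesenchymal markers were called in the same comparisons, with 2 of 12 lower in NC (Col3a1 and Thy1) and 7 of 12 in KD-Nap1l2 and medians of -0.56 and -0.82, and the summed CPM of the 12 was 25938 to 38393 at day 0 and 16281 to 18667 at day 7. Of 5 tested markers of other cell types, Cdh1 fell in both settings. The part of these markers in the changes of the 10 genes was not tested.

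**Figure D4:**
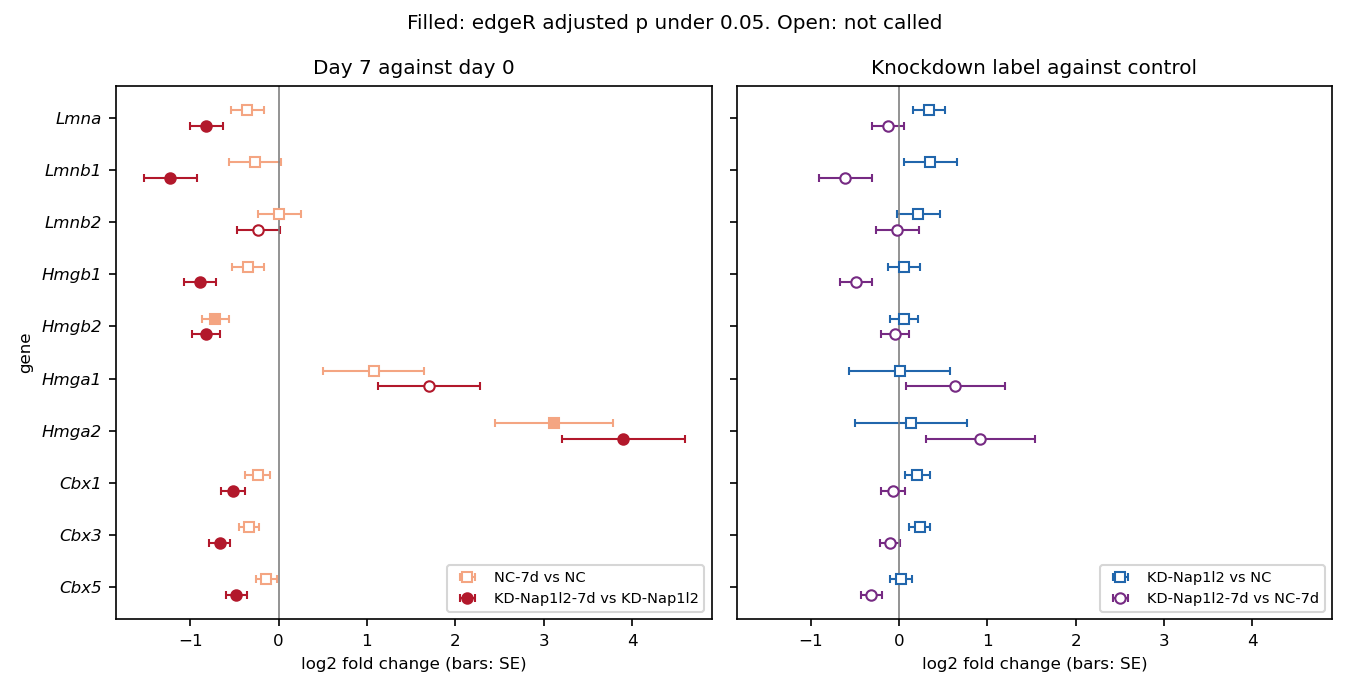
Points give the log2 fold change (horizontal axis) of each gene (vertical axis) with its SE as a bar, for day 7 against day 0 on the left and for the knockdown label against control on the right; filled points passed an edgeR adjusted p of 0.05. On the left, 8 KD-Nap1l2 points and 2 NC points are filled, and on the right all points are open.

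The comparison by knockdown label, in libraries whose Nap1l2 counts do not show the knockdown, gave no call among the 10 genes at either day. At day 0 all 10 had positive log2 fold changes, from 0.01 for Hmga1 to 0.36 for Lmnb1, with edgeR adjusted p between 0.421 and 0.998, and 0 had an unadjusted p under 0.05. Of all genes 0.0817% were called, with 1852 of 13470 at an unadjusted p under 0.05. The largest differences were in Lmnb1 (0.36 ± 0.30, 95% interval -0.33 to 1.04) and Lmna (0.34 ± 0.18, interval -0.08 to 0.77). Lmna, Lmnb1, Cbx1 and Cbx3 did not overlap between the groups, 4 of 10 against 43.2% of all genes. DESeq2 and limma on log2 FPKM called 0 of the 10 at either day.

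At day 7, 8 of the 10 had negative log2 fold changes and the AT-hook genes positive ones, with edgeR adjusted p between 0.567 and 0.991. Of all genes 0% were called by edgeR, with 1057 of 13470 at an unadjusted p under 0.05 and 79 called by DESeq2. Of the 10, Hmgb1 (-0.49 ± 0.18) and Cbx5 (-0.31 ± 0.12) had an unadjusted p under 0.05 in the edgeR fit, with adjusted p of 0.567 and 0.572. Lmnb1 had -0.61 ± 0.30 (edgeR adjusted p = 0.689), which became 0.00 without NC-7d replicate 2. Hmga2 had 0.92 ± 0.62 (adjusted p = 0.789). Hmga2 was higher and Hmgb1, Cbx3 and Cbx5 were lower without overlap, 4 of 10 against 42.1% of all genes. The change of this contrast from day 0 to day 7 called 0 of the 10 by edgeR, DESeq2 or limma, with 0 at an unadjusted p under 0.05. Of all genes 0% were called by edgeR, with 948 at an unadjusted p under 0.05 and 98 called by DESeq2. For the 10 genes the edgeR adjusted p lay between 0.703 and 0.941, so the calls in KD-Nap1l2 that were not made in NC do not show a different response. The largest such differences were in Lmnb1 (-0.96 ± 0.42, 95% interval -1.94 to 0.01) and, in the other direction, Hmga2 (0.79 ± 0.88). For Cbx3 both libraries labelled KD-Nap1l2 were above both controls at day 0 and below both at day 7, and the difference was -0.34 ± 0.16 (edgeR adjusted p = 0.721).

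At the level of transcripts, 39 of the 41 listed for the 10 genes were tested and 0 were called by edgeR in any comparison, with 4 at an unadjusted p under 0.05 from NC to NC-7d and 14 from KD-Nap1l2 to KD-Nap1l2-7d. Among the 38878 transcripts tested, 0.018% were called from NC to NC-7d and 0.144% from KD-Nap1l2 to KD-Nap1l2-7d. These shares are of adjusted calls. The share of all transcripts at an unadjusted p under 0.05 was not counted, so the 4 and 14 have no such comparison. Several of the 39 transcripts belong to the same gene. The smallest adjusted p of a transcript of the 10 genes was 0.0926 in KD-Nap1l2 and 0.232 in NC.

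Lists of partners of these proteins are read beside the share of all genes called, 8.21% in NC (3.38% lower) and 14.2% in KD-Nap1l2 (7.36% lower). Of 25 envelope and lamin partner genes, 1 was called in NC (Syne3, a nesprin of the outer nuclear membrane, log2 fold change 0.78, edgeR adjusted p = 0.0471) and 1 in KD-Nap1l2 (Tmpo, encoding the lamina-associated LAP2 proteins, -0.63, adjusted p = 0.0491). Of 14 other HMG genes tested, Hmgn2 and Hmgn3, which bind nucleosomes, fell in both settings. Hmgn2 measured 357 and 333 CPM in NC, 350 and 299 in KD-Nap1l2, 149 and 219 in NC-7d, and 121 and 136 in KD-Nap1l2-7d, with log2 fold changes of -0.91 ± 0.20 and -1.34 ± 0.20 (edgeR adjusted p = 0.0309 and 0.00629). Hmgn3 changed by -0.68 ± 0.17 and -0.95 ± 0.17 (adjusted p = 0.0451 and 0.0116). In all, 2 of the 14 fell and 0 rose in NC (3.38% of all genes fell), and 4 fell and 0 rose in KD-Nap1l2 (7.36% fell), where Tox, an HMG box factor, was also among them (-1.18 ± 0.16, edgeR adjusted p = 0.00451).

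Of 26 genes of the HP1 pathway, 1 rose in NC, beside 8.21% of all genes called (4.83% higher). It was Morc2a, which works with the HUSH silencing complex (0.74 ± 0.14, edgeR adjusted p = 0.0202). In KD-Nap1l2 3 fell, beside 14.2% of all genes called (7.36% lower). The largest falls there were in Kmt5c, a histone H4 lysine 20 methyltransferase (-0.998 ± 0.232, adjusted p = 0.0287), and Sgo1, the shugoshin that protects centromeric cohesion (-0.91 ± 0.23, adjusted p = 0.0381). A further list held 18 genes of senescence-associated heterochromatin foci, among them chaperones and histone variants. Of these 18, 1 fell in NC and 4 in KD-Nap1l2, and 0 rose, beside 3.38% and 7.36% of all genes that fell. H2afy2, encoding macroH2A2, fell in both, by 1.03 ± 0.12 in NC and 1.34 ± 0.12 in KD-Nap1l2 on the log2 scale (edgeR adjusted p = 0.00356 and 0.000986), from 63.8 and 63.0 CPM in NC to 30.6 and 31.3 in NC-7d and from 55.9 and 49.9 in KD-Nap1l2 to 19.9 and 21.9 in KD-Nap1l2-7d. The replicates of H2afy2 lay close together in every group. H2afv, encoding H2A.Z.2, fell in KD-Nap1l2 (-1.02 ± 0.17, adjusted p = 0.0106). The median log2 fold changes of these lists lay between -0.13 and 0.04 in NC and between -0.28 and -0.06 in KD-Nap1l2.

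Lmnb1 and Hmgb2 are known to follow the cell cycle, and the levels of proliferation markers are given beside them. The summed CPM of 20 proliferation markers was 1691 and 2127 in NC, 2401 and 2144 in KD-Nap1l2, 1118 and 2035 in NC-7d, and 1280 and 1357 in KD-Nap1l2-7d. NC-7d replicate 2, the day 7 library with the highest Lmnb1, lay in the range of day 0, and the other 3 day 7 libraries were the lowest. Mki67, the gene of the Ki-67 antigen, measured 323 and 343 CPM in NC, 448 and 395 in KD-Nap1l2, 141 and 310 in NC-7d, and 195 and 160 in KD-Nap1l2-7d. It fell by 1.25 ± 0.32 on the log2 scale in KD-Nap1l2 (edgeR adjusted p = 0.0395) and had -0.56 ± 0.32 in NC (adjusted p = 0.320). Of the 20 markers, 3 fell and 0 rose in KD-Nap1l2, where 14.2% of all genes were called (7.36% lower). These were Top2a (-1.10) and Bub1 (-1.07) beside Mki67. In NC 0 of the 20 markers were called by edgeR, with 0 at an unadjusted p under 0.05, against 3300 of all 13470 genes. Their median log2 fold changes were -0.75 in KD-Nap1l2 and -0.24 in NC. In NC 17 of the 20 markers had negative log2 fold changes and 3 had positive ones, and in KD-Nap1l2 all 20 had negative ones. By knockdown label, 20 of the 20 markers had positive log2 fold changes at day 0 (median 0.24) and 19 negative ones at day 7 (median -0.25), with 0 called by edgeR and 0 at an unadjusted p under 0.05 at either day. The 10 genes had the same signs in 10 of 10 at day 0 and 8 of 10 at day 7. The part of proliferation in the changes of the 10 genes was not tested.

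**Figure D5:**
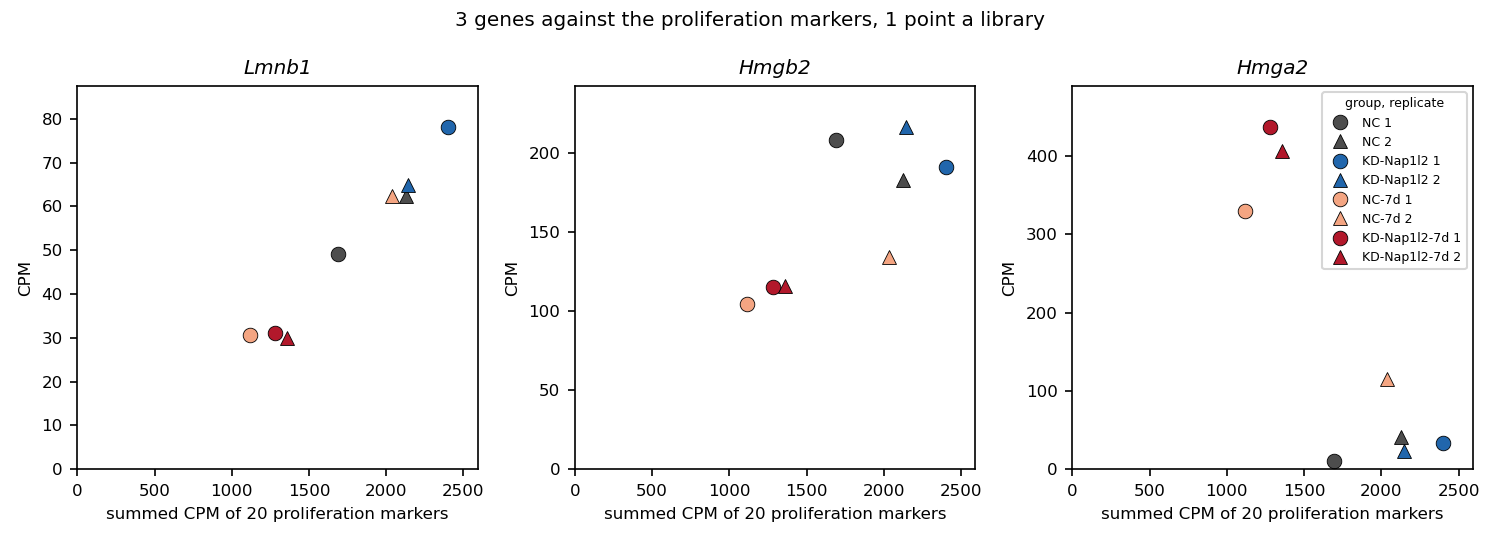
Each point is 1 library, with the summed CPM of 20 proliferation markers on the horizontal axis and the CPM of Lmnb1, Hmgb2 or Hmga2 on the vertical axis, coloured by group (circles replicate 1, triangles replicate 2). NC-7d replicate 2, at 2035 CPM of markers, has the Lmnb1 level of the day 0 libraries but a lower Hmgb2 (134 CPM) and a higher Hmga2 (115 CPM) than any of them.

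The arrest markers of senescence were not called higher. Cdkn1a, encoding the cyclin-dependent kinase inhibitor p21, measured 288 and 245 CPM in NC, 401 and 623 in KD-Nap1l2, 443 and 376 in NC-7d, and 673 and 604 in KD-Nap1l2-7d. The libraries labelled KD-Nap1l2 lay above their controls at both days without overlap. The log2 fold changes by label were 0.94 ± 0.22 at day 0 and 0.64 ± 0.22 at day 7 (edgeR adjusted p = 0.140 and 0.544). On induction Cdkn1a changed by 0.62 ± 0.22 in NC and 0.32 ± 0.22 in KD-Nap1l2 (edgeR adjusted p = 0.133 and 0.360). Cdkn2a, the locus of p16 and ARF, had 0 counts in 6 libraries and 1 count in the other 2, so that any change was not detectable at this depth. Of 8 arrest genes tested, 0 were called in NC by edgeR, with 2 at an unadjusted p under 0.05. In KD-Nap1l2 2 fell, the INK4 inhibitors Cdkn2d (-1.07 ± 0.27, edgeR adjusted p = 0.0359) and Cdkn2c (-0.99 ± 0.14, adjusted p = 0.00493). Of all genes, 8.21% were called in NC and 14.2% in KD-Nap1l2 (7.36% lower). From NC to NC-7d, 3300 of all 13470 genes had an unadjusted p under 0.05 by edgeR. By knockdown label 0 of the 8 arrest genes were called by edgeR, with 2 at day 0 and 3 at day 7 at an unadjusted p under 0.05. Cdkn1a was among those at both days (edgeR unadjusted p = 0.00281 at day 0). In the comparisons by knockdown label, 0 of the 134 genes tested in all lists were called by edgeR at either day. Of these 134, 17 at day 0 and 12 at day 7 had an unadjusted p under 0.05. Among all 13470 genes tested, 1852 at day 0 and 1057 at day 7 did.

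The genes with the most similar profile over the 8 libraries were found by the Pearson correlation of log2 CPM, as a description over libraries that fall into 2 days. For Lmnb1 these were the mitotic genes Kif20b (r = 0.992), Cdc20 (0.990) and Nuf2 (0.988), and for Lmna they were Col1a1 (0.991), Cdkn2d (0.987) and Pcsk6 (0.983). Hmgb2 was closest to Anks6 (0.994), Ptprq (0.993) and Neu2 (0.992). Hmga2 was closest to Cpt1a (0.992), Mapk12 (0.988) and Igf2bp2 (0.988). Among the 10 genes themselves, Hmga2 ran most opposite to Hmgb2 (r = -0.97).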

How the data were processed

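Total RNA of C3H10T1/2 cells was sequenced in 8 libraries, 2 in each of 4 groups. Tools named in the submitters' processing notes are BWA, Bowtie2 and RSEM, with genome build GRCm38.p6. Roles and versions are not given in the sources used here. The authors deposited estimated counts per gene and per transcript, which RSEM divides between genes that share reads, and a second column per library with no unit in its header, taken here as FPKM because its sums differ between libraries and lie well under those of TPM. 41.1% of genes had a count that was not whole, and the estimated counts were rounded before testing. Their fold changes, p-values and adjusted p-values between groups were not used.

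Counts were scaled by TMM and filtered with filterByExpr (13470 of 18605 genes). edgeR 4.0.16 (R 4.3.3) fitted a quasi-likelihood model with 1 term per group to all 8 libraries, with Benjamini-Hochberg adjustment over all genes tested and a threshold of 0.05. Confidence intervals are at 95%. Library totals of 17420284 to 19427359 mean that a count of 0 allows up to 3 counts, or at most 0.176 CPM, counting error only. CPM refers to TMM-scaled libraries. Alternatives were DESeq2 1.42.0, RLE scaling, other filters (none, or 10 counts in every library), fits of the compared libraries only, a replicate block, limma 3.58.1 on log2(FPKM + 1) and log2(FPKM + 0.1), and leaving out each library. Summing Hmga1 and Hmga1b was chosen after seeing the data.

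The genes, lists and motifs were chosen with earlier results of these data known. Named beyond the 10 genes are Nap1l2, Cdkn1a, Cdkn2a and Mki67, from each list at most the 2 largest rises and 2 largest falls among called genes of each induction comparison, and the 3 genes most correlated with Lmna, Lmnb1, Hmgb2 and Hmga2. Hmga1b, Igf2bp2's level, Thy1, Cd3e, Epcam, Cd68, Cdh1, Csf1r, Pecam1, Lin28a and Lin28b were named after their values were seen. Listed genes not in the table include Hmgb4, Tox3, Cdkn2b and Adgre1. Promoter windows and microRNAs are from RefSeq (GRCm38.p6), 3' UTRs and coding lengths from GENCODE. Figures were drawn with matplotlib 3.10.9.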

Additional observations from a re-analysis of the deposited data

How the results depend on the processing

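From KD-Nap1l2 to KD-Nap1l2-7d, 8 of the 10 genes were called, against 8 with DESeq2, RLE scaling, a minimum of 10 counts, the replicate block or summed Hmga1 counts, 7 with no filter or on log2(FPKM + 0.1), 6 on log2(FPKM + 1) or with the compared libraries alone, and 0 to 8 with 1 library left out. From NC to NC-7d the 2 calls became 0 when the compared libraries were fitted alone, which leaves fewer samples for the spread, and 0 to 2 with 1 library left out. Without NC-7d replicate 1, and again without NC-7d replicate 2, Hmga1 was called from KD-Nap1l2 to KD-Nap1l2-7d and Cbx1 was not. In the other 3 comparisons 0 of the 10 genes were called under every alternative tried. Where 1 library is left out, its group keeps 1 library, assumed to vary like the others. Leaving out either KD-Nap1l2-7d library ended every call of the 10 genes.

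No called gene changed sign under any alternative. The log2 fold changes that did were these, with the range over the 8 fits that leave out 1 library and the cause not tested. For KD-Nap1l2 against NC, Lmnb2 -0.051 to 0.55, Hmga1 -0.95 to 0.58, Hmga2 -0.54 to 1.44, Cbx5 -0.026 to 0.073, Hmgb1 -0.10 to 0.19 and Hmgb2 -0.036 to 0.15. For KD-Nap1l2-7d against NC-7d, Lmna -0.27 to 0.050, Lmnb1 -1.03 to 0.00092, Lmnb2 -0.25 to 0.26, Hmgb2 -0.22 to 0.15 and Cbx1 -0.17 to 0.021. For NC to NC-7d, Lmnb2 -0.26 to 0.34 and Lmnb1 -0.87 to 0.16. For the difference between days, Lmnb2 -0.57 to 0.036, Hmga2 -0.51 to 1.73 and Hmgb2 -0.27 to 0.090. Hmga1 in KD-Nap1l2 against NC was also negative on log2(FPKM + 1) and log2(FPKM + 0.1), at -0.12 and -0.14.

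Counts over all genes moved more. KD-Nap1l2 against NC gave 11 calls, and 460 with DESeq2, 160 with no filter, 4 with a minimum of 10 counts, 0 with the compared libraries alone, 33 and 18 on log2(FPKM + 1) and log2(FPKM + 0.1), and 0 to 562 with 1 library left out (0 without NC replicate 2 or KD-Nap1l2 replicate 2, 562 without KD-Nap1l2 replicate 1). KD-Nap1l2-7d against NC-7d gave 0, and 79 with DESeq2 and 0 to 1 with 1 library left out. The difference between days gave 0, and 98 with DESeq2, 1 with no filter and 0 to 19 with 1 library left out. NC to NC-7d gave 1106, and 122 (without NC replicate 1) to 1490 with 1 library left out. KD-Nap1l2 to KD-Nap1l2-7d gave 1912, and 305 (without KD-Nap1l2-7d replicate 1) to 2218.

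The labels do not say what a replicate number marks. The deviations of replicate 1 correlated from -0.061 to 0.104 between groups over 13470 genes, which cannot show whether equal numbers mark paired cultures. With the replicate number as a block, 1 gene (Hmgb2) was called from NC to NC-7d, 8 from KD-Nap1l2 to KD-Nap1l2-7d and 0 in the other comparisons, and 4 of all genes for KD-Nap1l2 against NC. The block turned Hmga1 in that comparison to -0.0051, and 0 transcripts of the 10 genes were called with it.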
